A study of Mus musculus with 17 samples.

Results

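The mitochondrial carriers named Slc25a were examined in the fat around the prostate of diet-fed mice. The members were the genes whose symbol begins with Slc25a and a digit, taken from probe sets annotated with 1 gene symbol. This gave 46 of the 22180 genes measured, each with 1 probe set. Total RNA from the periprostatic fat of 17 male C57BL/6J mice, 25 weeks old, was hybridised to Affymetrix Mouse Gene 2.0 ST arrays, 1 mouse per array. The 6 LFD mice ate a low-fat diet (10 kcal% fat) without limit. The 6 HFD mice ate a high-fat diet (60 kcal% fat) without limit. The 5 HFD_CR mice had that high-fat diet without limit for 12 weeks, then for 7 weeks 70% of what the HFD mice ate, a restriction of 30%. All mice entered their diets at 6 weeks of age. Neither the feeding state nor the hour at which the fat was taken is given in the sources used here. Values are log2 signals of the array, so a difference of 1 is a doubling of signal.

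Carriers of this family sit mostly in the inner mitochondrial membrane, where each moves a small set of solutes between the matrix and the cytosol. They pass ADP and ATP, phosphate, di- and tricarboxylates, amino acids, acylcarnitines, coenzyme A and other cofactors. In white fat the best known task is the export of citrate, which ATP citrate lyase splits into acetyl-CoA for fatty acid synthesis. The proteins are made in the cytosol and are inserted by the TIM22 complex. The uncoupling proteins belong to the same family under other names.

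On the high-fat diet 7 of the 46 members rose against the low-fat diet and 13 fell, with limma's Benjamini-Hochberg adjusted p under 0.05 as the threshold. That is 43.5% of the members, while 27.8% of all genes passed (16.5% higher, 11.3% lower). The rises were led by Slc25a13, Slc25a43 and Slc25a24, and the falls by Slc25a35, Slc25a23 and Slc25a22. Restricted against unrestricted high-fat feeding gave 4 members higher and 6 lower (21.7% of the members against 19% of all genes, with 7.69% higher and 11.3% lower). Restricted high-fat against low-fat feeding gave 5 higher and 8 lower (28.3% against 9.08% of all genes, with 5.8% higher and 3.28% lower). Leaving out HFD_CR mouse 2 turned the count of 8 into 5. The shares of all genes include dim ones. With only genes above the median gene fitted, 48.7%, 37.5% and 20.9% of them passed in the 3 comparisons in that order. In that setting members higher and lower were 5 and 13, 5 and 5, and 3 and 10. Of the 36 members with a mean above 7.03, the lowest of the 17 array medians, 50%, 27.8% and 27.8% passed in the main fit. That cut is lower than the median gene, which lay above the mean of Slc25a13 (7.43), and the main fit adjusted p over all genes. So the members' larger shares over all genes were not tested apart from brightness. Below, each mouse was left out on its own wherever a call is said to end or to pass without a mouse of a given number. The ranges printed with such mice cover those fits alone. Many of these calls also changed in other settings, which are given for some genes only. Of all genes called for HFD minus LFD 59.4% were higher, or 47.9% after a second quantile normalization, and of the members called 35% or 29.2%. For HFD_CR minus HFD these shares were 40.5% or 51.4% of all genes called and 40% or 50% of the members called. In each comparison 9 members had groups with no overlap between mice, beside 14.3%, 13.7% and 6.67% of all genes in the same order. The median difference of the 46 members was -0.06, -0.02 and -0.04 in that order, and that of all genes -0.00323, -0.00238 and -0.000449. The first 2 comparisons share the HFD mice, so a member high in those mice moves in opposite directions in them.

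**Figure D1:**
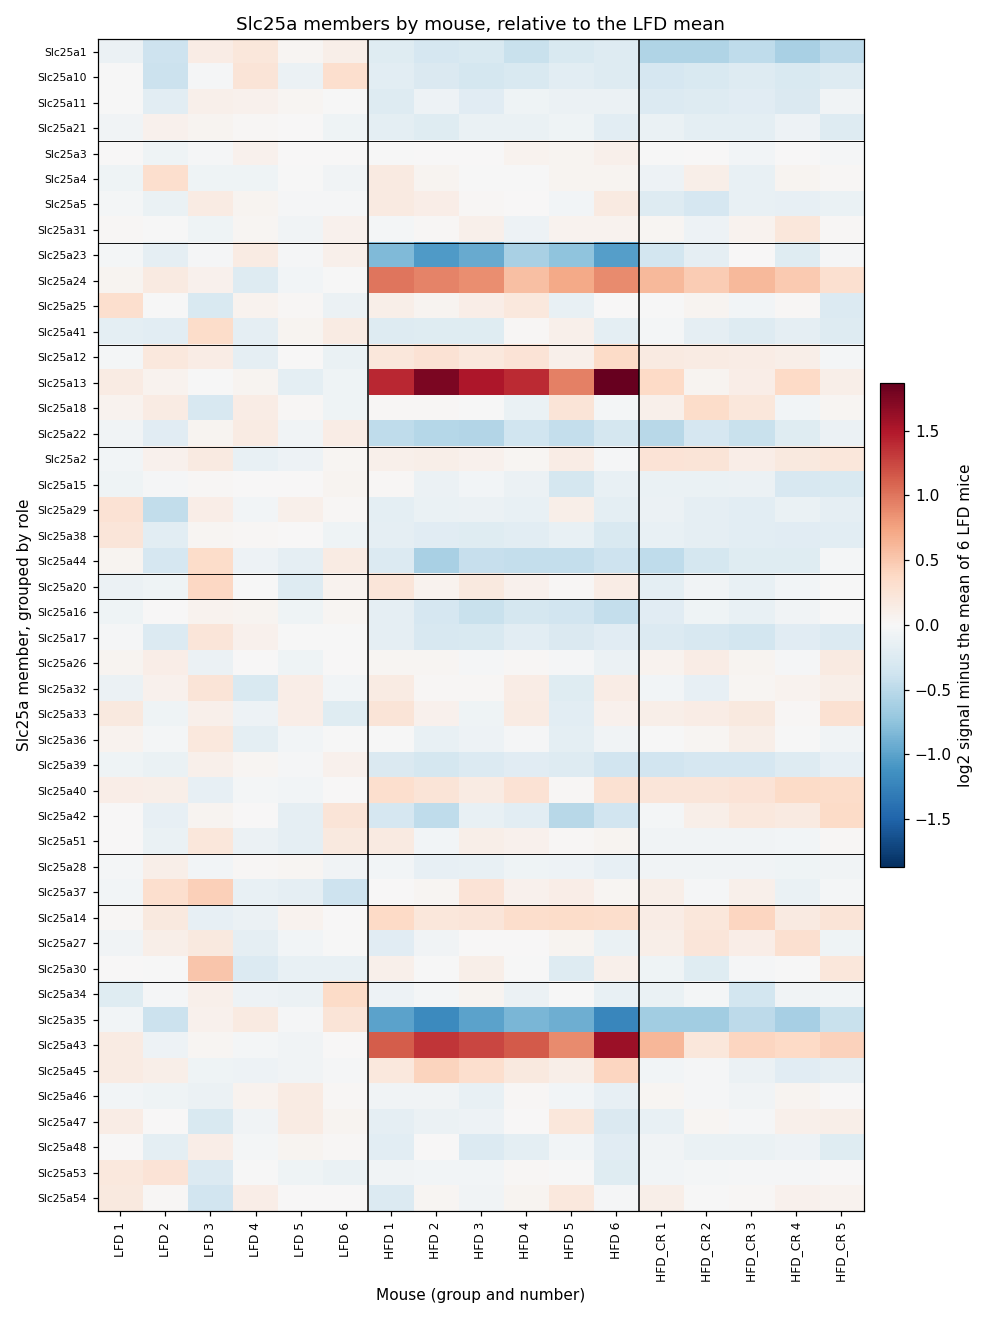
Log2 signal of the 46 Slc25a members in each of the 17 mice as a difference from the mean of the LFD mice, with members in rows grouped by cargo and mice in columns grouped by diet. The colour scale is symmetric around 0, and the strongest colours are those of Slc25a13, Slc25a43 and Slc25a35 in the HFD mice.

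The signals covered a wide range of brightness, and for 10 members the mean over all mice lay below 7.03, the lowest of the 17 array medians. These are Slc25a2, Slc25a14, Slc25a18, Slc25a21, Slc25a31, Slc25a34, Slc25a41, Slc25a48, Slc25a53 and Slc25a54, which were not shown to lie above background. Slc25a13 lay below it in the LFD group alone, with a mean of 6.85 ± 0.12 (SD, n = 6). Slc25a29 lay just below it in the HFD_CR group alone, with a mean of 7.02 ± 0.04 (SD, n = 5).

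**Figure D2:**
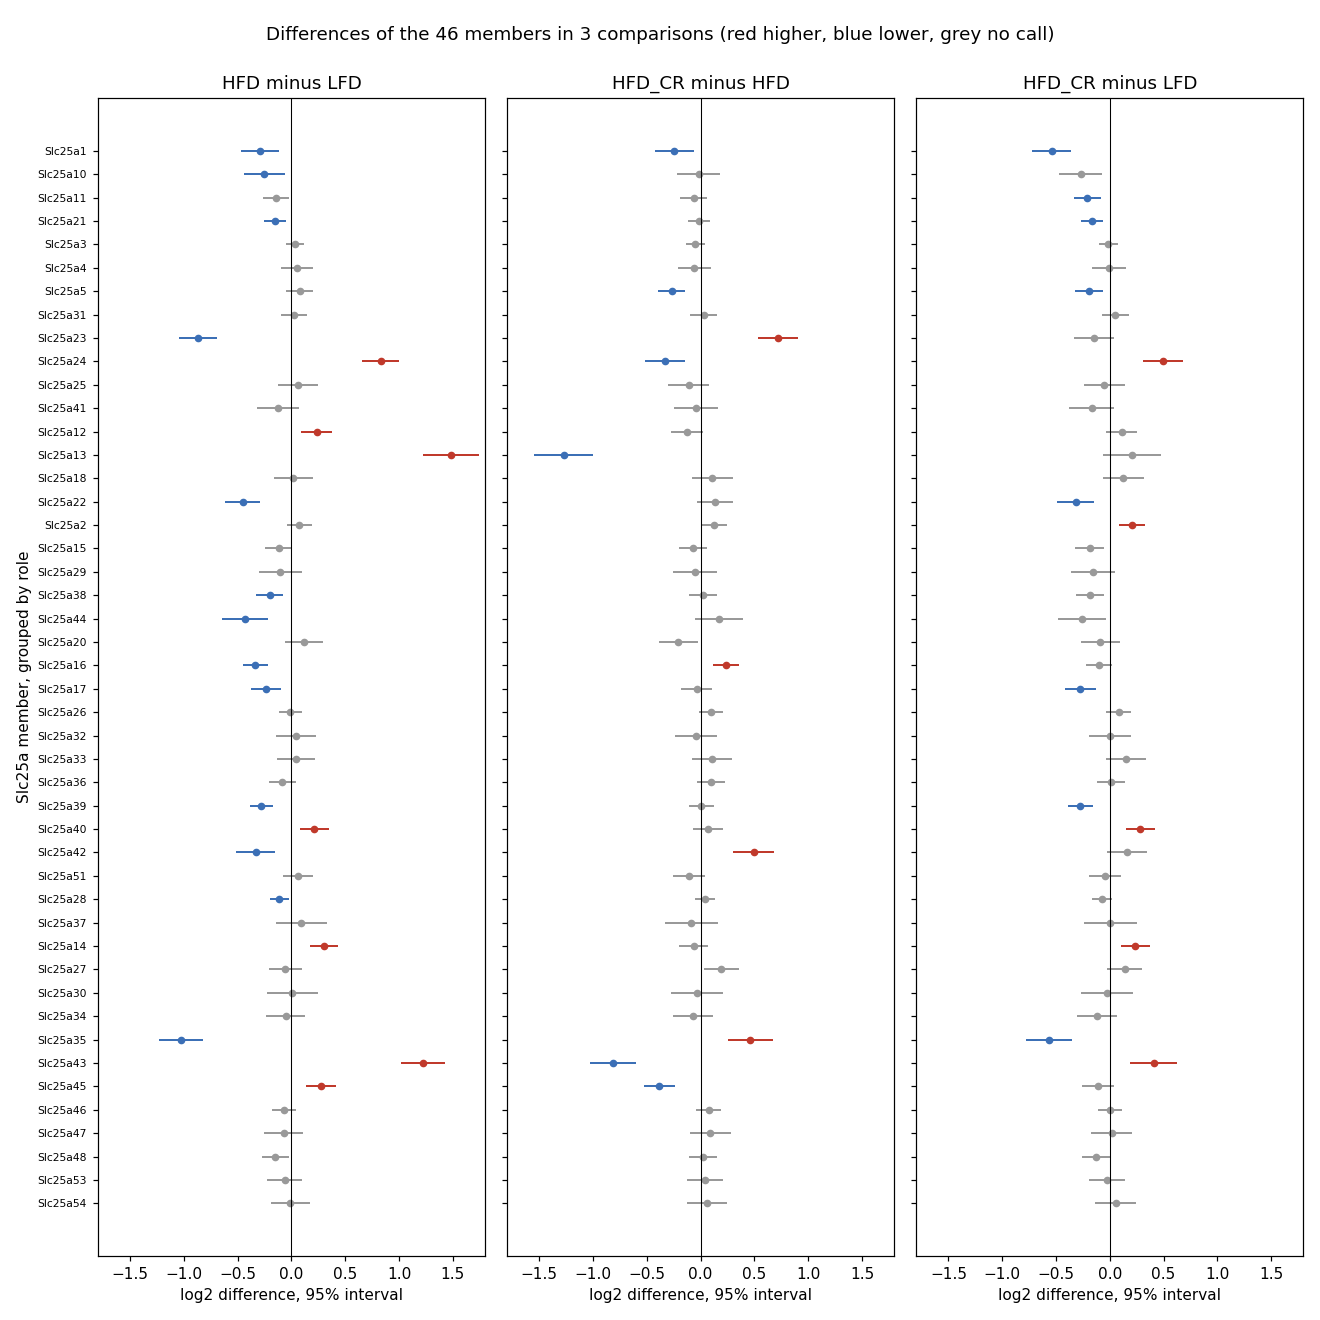
Log2 difference between groups for each Slc25a member, with 1 panel for each of the 3 comparisons, points at the fitted difference and bars for its 95% confidence interval. Red (higher) and blue (lower) points passed an adjusted p of 0.05 and grey points did not, and Slc25a13 and Slc25a43 stand farthest to the right for HFD minus LFD while Slc25a35 and Slc25a23 stand farthest to the left.

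The tissue carried the markers of fat: the mean signal of 9 adipocyte genes such as Adipoq and Plin1 was 12.6 to 12.8 in LFD, 12.4 to 12.5 in HFD and 12.6 to 12.8 in HFD_CR mice. Of these 9, 7 fell and 1 rose on the high-fat diet, and 6 rose with restriction. All 8 macrophage genes rose on the high-fat diet and all 8 fell with restriction, and 4 stayed higher in HFD_CR than in LFD mice. Their mean signal was 10.0 to 10.5 in LFD, 11.9 to 12.3 in HFD and 10.6 to 11.5 in HFD_CR mice, with no overlap between any of the groups. Whole tissue was measured, so a change in the number of cells of a type and a change in RNA per cell cannot be told apart, and the part of either cell type in the carrier differences was not tested. Skeletal muscle genes (12) averaged more than 1 above the median array in LFD mice 2 and 3, HFD mouse 6 and HFD_CR mouse 2, and prostate and accessory gland genes (10) did so in LFD mouse 3 and HFD mouse 3. Those 5 mice are called the mice with other tissue, and leaving them out was tried with LFD mouse 6 kept and with it left out too. Male germ cell genes (9) averaged 9.59 in HFD_CR mouse 1 and at most 7.99 in the others, and this mouse was not counted among the mice with other tissue and was kept when they were left out. Thermogenic adipocyte genes (8) averaged 10.6 and 10.1 in LFD mice 3 and 6 and at most 8.92 elsewhere, and of them 0 rose and 3 fell on the high-fat diet, 1 rose and 2 fell with restriction, and 4 were lower in HFD_CR than in LFD mice. The 7 B and T cell genes ran from 8.15 to 9.52 over all mice, and none passed in any comparison.

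**Figure D3:**
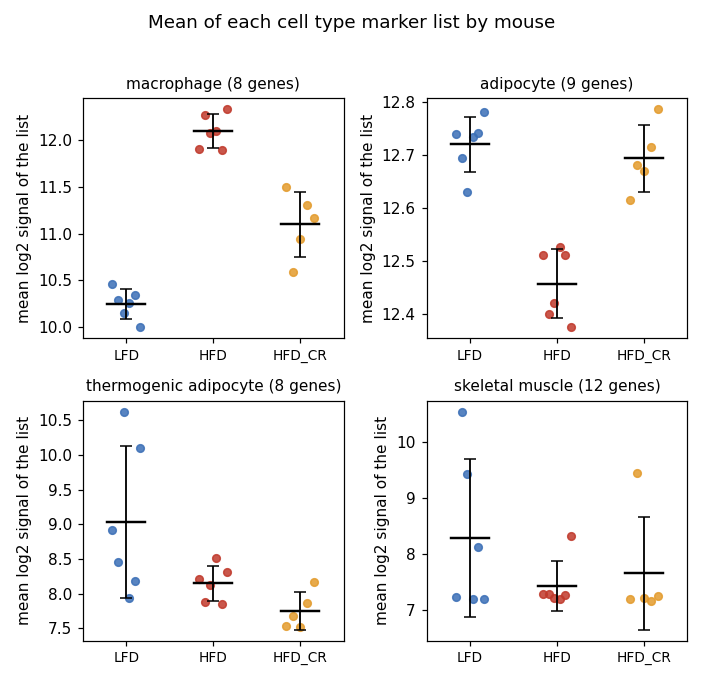
Mean log2 signal of the macrophage, adipocyte, thermogenic adipocyte and skeletal muscle marker lists in each mouse, by diet group, with each point 1 mouse. The macrophage means of the HFD mice (11.9 to 12.3) lie above all LFD mice (10.0 to 10.5), and single mice stand high for skeletal muscle and thermogenic genes.

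The largest difference among the carriers was that of Slc25a13, also called citrin, which exchanges matrix aspartate for cytosolic glutamate and is a step of the malate-aspartate shuttle that brings reducing equivalents of NADH into mitochondria. Its signal was 6.67 to 7.00 (median 6.87) in LFD mice and 7.79 to 8.72 (median 8.31) in HFD mice. In the HFD_CR mice it was 7.22, 6.91, 6.98, 7.22 and 6.97. Every HFD mouse lay above every other mouse, HFD mouse 5 was the lowest of that group and HFD mouse 6 the highest, and the HFD_CR mice overlapped with the LFD mice. Slc25a13 rose by 1.48 ± 0.12 (adjusted p = 5.48e-08) on the high-fat diet and fell by 1.27 ± 0.12 (adjusted p = 6.47e-06) with restriction. HFD_CR minus LFD was 0.21 ± 0.12 (adjusted p = 0.362). All LFD signals and those of HFD_CR mice 2, 3 and 5 lay below their array medians and were not shown to lie above background, so the sizes rest in part on dim signals. With each array's median in place of a lower signal the rise was 1.25 and the difference with restriction -1.20. All 8 macrophage genes rose and fell in the same comparisons, which share the HFD mice, and 4 of them were higher in HFD_CR than in LFD mice. Their part in the differences of Slc25a13 was not tested.

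Slc25a12, or aralar, carries out the same exchange and is the form known from muscle and brain. Its signal was 8.92 to 9.28 (median 9.07) in LFD, 9.18 to 9.45 (median 9.33) in HFD and 9.25, 9.25, 9.23, 9.20 and 9.06 in HFD_CR mice. The groups overlapped. Of the LFD mice only mice 2 (9.28) and 3 (9.22) reached into the HFD range, both among the mice high in muscle genes. HFD mouse 6, the highest of its group, was also among those mice. The part of muscle in these values was not tested. Slc25a12 rose by 0.23 ± 0.06 (adjusted p = 0.00914) on the high-fat diet, while the difference with restriction was -0.12 ± 0.07 (adjusted p = 0.228) and that of HFD_CR from LFD 0.11 ± 0.07 (adjusted p = 0.369). The start-site windows of both genes, taken from the RefSeq promoter table (GRCm38.p6, both on the minus strand, 250 bases before to 50 after the start), are given to show how the promoters of the paired exchangers compare. That of Slc25a13 lies at chr6:6217124-6217423 and that of Slc25a12 at chr2:71367706-71368005. Capitals mark a CCAAT box and, in 1 overlapping run, an AP-1 site (TGACTCA) and an E box (CACGTG), read on either strand.

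Slc25a13: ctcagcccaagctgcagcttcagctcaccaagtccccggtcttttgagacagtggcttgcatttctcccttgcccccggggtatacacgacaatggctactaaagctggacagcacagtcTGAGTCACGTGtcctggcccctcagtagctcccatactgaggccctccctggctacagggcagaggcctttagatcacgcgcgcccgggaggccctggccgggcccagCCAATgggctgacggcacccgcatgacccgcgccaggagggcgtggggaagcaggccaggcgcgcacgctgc

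Slc25a12: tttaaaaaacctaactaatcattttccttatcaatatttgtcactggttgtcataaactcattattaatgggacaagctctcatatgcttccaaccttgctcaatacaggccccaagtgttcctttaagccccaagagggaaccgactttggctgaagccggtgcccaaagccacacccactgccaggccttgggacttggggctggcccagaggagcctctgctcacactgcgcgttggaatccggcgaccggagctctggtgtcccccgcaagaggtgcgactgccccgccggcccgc

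The AP-1 letters were found in 2.17% of the 46 member windows, that of Slc25a13 alone, and in 5.2% of all 32851 windows. None of those motifs, nor a GC box, was found in the window of Slc25a12. A match of letters is a description and not a binding site.

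Glutamate itself enters through Slc25a22 and Slc25a18. Slc25a22 ran 9.42 to 9.78 (median 9.62) in LFD, 9.07 to 9.30 (median 9.16) in HFD and 9.11, 9.31, 9.21, 9.41 and 9.51 in HFD_CR mice. All HFD mice lay below all LFD mice, and the HFD_CR mice overlapped with the HFD mice, with HFD_CR mouse 5 also inside the LFD range. The fall on the high-fat diet was -0.45 ± 0.07 (adjusted p = 0.000116), and HFD_CR mice were lower than LFD mice by 0.32 ± 0.08 (adjusted p = 0.0128), a call that ended without LFD mice 3 and 6, and also without LFD mouse 6 and the mice with other tissue (-0.32 to -0.27, adjusted p = 0.0679 to 0.0739). HFD_CR minus HFD was 0.13 ± 0.08 (adjusted p = 0.264). Slc25a18 was dim and had no call, with a largest difference of 0.13 ± 0.09 (adjusted p = 0.43) for HFD_CR minus LFD. Of the 4 enzymes of the malate-aspartate shuttle, the cytosolic transaminase Got1 rose by 0.71 ± 0.09 (adjusted p = 7.1e-06) on the high-fat diet and fell by 0.39 ± 0.09 (adjusted p = 0.00596) with restriction. Mitochondrial malate dehydrogenase Mdh2 fell by 0.22 ± 0.05 (adjusted p = 0.00131) on the high-fat diet. Between HFD_CR and LFD mice the difference was 0.32 ± 0.09 (adjusted p = 0.0357) for Got1, a call that ended without HFD_CR mouse 1, 3, 4 or 5, or LFD mouse 1, 4, 5 or 6 (0.27 to 0.33, adjusted p = 0.0602 to 0.0914), and -0.19 ± 0.05 (adjusted p = 0.0189) for Mdh2, which ended without HFD_CR mouse 1 (-0.16, adjusted p = 0.065). Of the 4 enzymes 1 rose and 1 fell on the high-fat diet, 0 rose and 1 fell with restriction, and for HFD_CR minus LFD 1 was higher and 1 lower.

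Of the 4 carriers that exchange ATP-Mg for phosphate, and so set the pool of adenine nucleotides in the matrix, Slc25a24 rose and Slc25a23 fell on the high-fat diet, and Slc25a25 and Slc25a41 had no call. Slc25a24 was 8.63 to 9.04 (median 8.90) in LFD, 9.44 to 9.87 (median 9.75) in HFD and 9.48, 9.35, 9.47, 9.35 and 9.17 in HFD_CR mice. All HFD and HFD_CR mice were above all LFD mice, and HFD_CR mice 1 and 3 reached into the HFD range. Slc25a24 rose by 0.83 ± 0.08 (adjusted p = 3.46e-07) on the high-fat diet and fell by 0.33 ± 0.08 (adjusted p = 0.00799) with restriction, and HFD_CR mice stayed above LFD mice by 0.49 ± 0.08 (adjusted p = 0.00095). The fall with restriction was no longer called without the mice with other tissue (-0.30, adjusted p = 0.0733 to 0.0835). The macrophage genes had the same order of groups (8 of 8 up with the diet, 8 of 8 down with restriction, 4 of 8 up in HFD_CR against LFD). Their part in the differences of Slc25a24 was not tested.

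Slc25a23, its paralog, was 10.86 to 11.17 (median 11.00) in LFD, 9.97 to 10.42 (median 10.14) in HFD and 10.68, 10.86, 11.03, 10.80 and 11.00 in HFD_CR mice. Here every HFD mouse was below every other mouse, and the HFD_CR mice overlapped with the LFD mice. The fall on the high-fat diet was -0.87 ± 0.08 (adjusted p = 2.41e-07) and the rise with restriction 0.72 ± 0.08 (adjusted p = 1.7e-05), with -0.15 ± 0.08 (adjusted p = 0.329) left between HFD_CR and LFD. Slc25a25, a further member of this type, was 8.15 to 8.74 (median 8.43) in LFD, 8.29 to 8.62 (median 8.51) in HFD and 8.41, 8.48, 8.37, 8.45 and 8.17 in HFD_CR mice. The groups overlapped and no difference passed, the largest being -0.11 ± 0.09 (adjusted p = 0.449) for HFD_CR minus HFD. Slc25a41 was below every array's median in all mice and had no call. The start-site windows of the opposed pair are printed from the RefSeq table (GRCm38.p6), Slc25a24 at chr3:109122899-109123198 on the plus strand and Slc25a23 at chr17:57059814-57060113 on the minus strand, the first of 2 windows of that gene. Capitals mark GC boxes (GGGCGG or its reverse) and a CCAAT box.

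Slc25a24: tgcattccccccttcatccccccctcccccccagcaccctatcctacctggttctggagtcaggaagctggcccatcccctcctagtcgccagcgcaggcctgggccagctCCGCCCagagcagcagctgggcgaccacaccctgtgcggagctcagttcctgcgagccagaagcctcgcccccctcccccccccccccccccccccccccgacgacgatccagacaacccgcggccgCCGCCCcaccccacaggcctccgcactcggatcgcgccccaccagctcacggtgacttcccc

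Slc25a23: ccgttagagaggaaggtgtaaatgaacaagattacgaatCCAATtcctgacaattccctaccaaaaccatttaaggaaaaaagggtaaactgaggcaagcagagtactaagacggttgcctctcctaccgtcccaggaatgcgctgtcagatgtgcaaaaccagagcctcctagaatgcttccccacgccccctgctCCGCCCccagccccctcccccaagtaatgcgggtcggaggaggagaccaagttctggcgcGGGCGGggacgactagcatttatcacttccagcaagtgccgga

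Each window held 2 GC boxes, while the CCAAT box was found only in that of Slc25a23 among these 2.

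**Figure D4:**
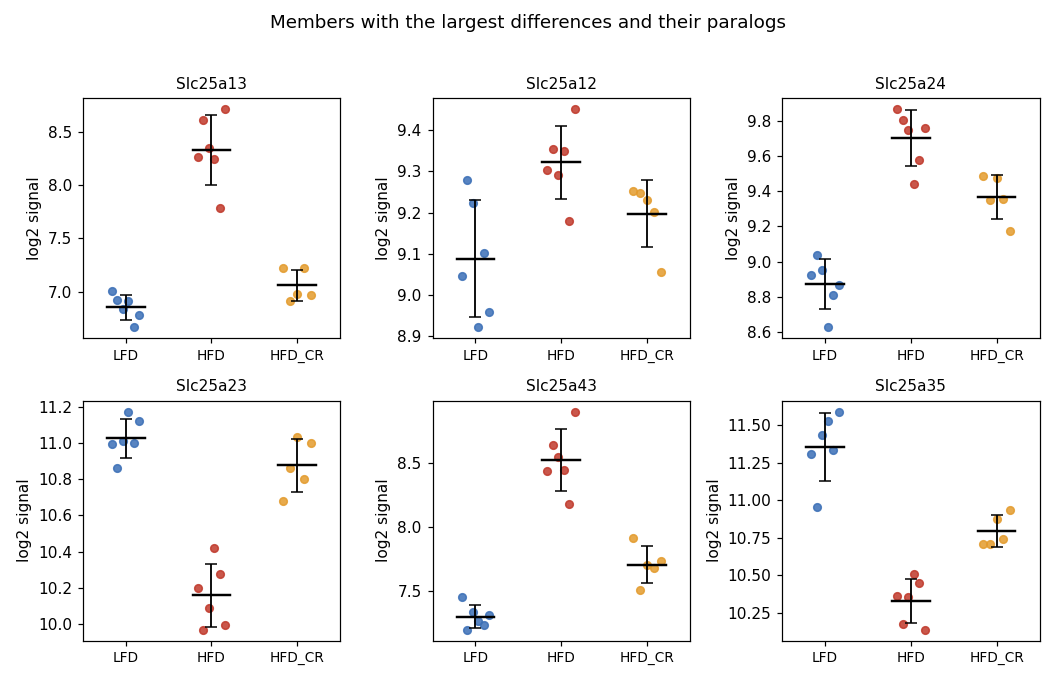
Log2 signal of carriers in each mouse (points), with the group mean (line) and SD (bars), for LFD (n = 6), HFD (n = 6) and HFD_CR (n = 5) mice. The panels are Slc25a13, Slc25a12, Slc25a24, Slc25a23, Slc25a43 and Slc25a35. Slc25a13, Slc25a24 and Slc25a43 are highest in the HFD mice, Slc25a23 and Slc25a35 are lowest there, and the groups overlap for Slc25a12.

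Slc25a1 and Slc25a10, carriers of citrate and of dicarboxylates, fell on the high-fat diet, and so did Acly, Acaca and Fasn, enzymes that split citrate and build fatty acids from it. Slc25a1, the citrate carrier that swaps matrix citrate for malate, was 12.61 to 13.21 (median 13.07) in LFD, 12.59 to 12.77 (median 12.72) in HFD and 12.44, 12.43, 12.52, 12.39 and 12.51 in HFD_CR mice. LFD mouse 2 was the lowest of its group and lay within the HFD range, and all HFD_CR mice lay below all HFD and LFD mice. Slc25a1 fell by 0.29 ± 0.08 (adjusted p = 0.00811) on the high-fat diet, and HFD_CR minus LFD was -0.54 ± 0.08 (adjusted p = 0.00042). The first of these was not called without LFD mice 3 and 6 (-0.23, adjusted p = 0.0575). HFD_CR minus HFD was -0.25 ± 0.08 (adjusted p = 0.0424), a call that ended without any single HFD_CR mouse, HFD mouse 1, 2, 3, 5 or 6, or LFD mouse 5 (-0.26 to -0.23, adjusted p = 0.0515 to 0.0961) and in 5 of 13 other settings (-0.23 to -0.22, adjusted p = 0.053 to 0.0788). The RefSeq window of Slc25a1 (GRCm38.p6, chr16:17928170-17928469, minus strand), shown as the promoter of the citrate exit step, held 4 GC boxes, 2 CCAAT boxes and 1 E box, in capitals.

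Slc25a1: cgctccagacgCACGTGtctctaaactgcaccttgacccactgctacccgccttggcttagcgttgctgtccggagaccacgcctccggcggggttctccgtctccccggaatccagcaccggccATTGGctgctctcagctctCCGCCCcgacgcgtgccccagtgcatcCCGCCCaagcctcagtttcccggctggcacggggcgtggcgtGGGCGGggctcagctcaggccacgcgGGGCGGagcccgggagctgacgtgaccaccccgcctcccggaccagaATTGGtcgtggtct

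Slc25a10 exchanges malate or succinate for phosphate. Its signal was 11.04 to 11.77 (median 11.43) in LFD, 11.13 to 11.26 (median 11.19) in HFD and 11.14, 11.17, 11.22, 11.16 and 11.21 in HFD_CR mice. LFD mouse 2 was the lowest of all mice, and the other LFD mice lay above all mice of the other groups. HFD minus LFD was -0.25 ± 0.09 (adjusted p = 0.0367), a call that ended without HFD mouse 2, 3, 4 or 6, or LFD mouse 1, 4 or 6 (-0.25 to -0.19, adjusted p = 0.0529 to 0.0922). That call also ended in 3 of 13 other settings, among them without LFD mice 3 and 6 (-0.25 to -0.18, adjusted p = 0.0547 to 0.148). Relative to LFD, HFD_CR mice differed by -0.27 ± 0.09 (adjusted p = 0.0735), which passed without LFD mouse 2 (-0.35, adjusted p = 0.00293), and HFD_CR minus HFD was -0.02 ± 0.09 (adjusted p = 0.926). Slc25a11, which exchanges malate for oxoglutarate in the malate-aspartate shuttle, was 11.66 to 11.95 (median 11.86) in LFD, 11.60 to 11.77 (median 11.74) in HFD and 11.59, 11.60, 11.63, 11.58 and 11.78 in HFD_CR mice. HFD_CR mouse 5 stood above the rest of its group and the groups overlapped. The difference of HFD_CR from LFD was -0.21 ± 0.06 (adjusted p = 0.023), a call that ended without HFD_CR mouse 1, 2 or 4, or LFD mouse 4 (-0.20 to -0.19, adjusted p = 0.0546 to 0.0662). HFD minus LFD was -0.14 ± 0.05 (adjusted p = 0.0533) and passed without HFD_CR mouse 5, HFD mouse 4, or LFD mouse 2 (-0.18 to -0.14, adjusted p = 0.00827 to 0.0491). The oxoadipate carrier Slc25a21 was below every array's median in all mice, with differences from LFD of -0.15 ± 0.04 (adjusted p = 0.0107) in HFD and -0.16 ± 0.04 (adjusted p = 0.0245) in HFD_CR mice. The call for HFD_CR minus LFD ended without HFD_CR mouse 2, 3 or 5 (-0.16 to -0.15, adjusted p = 0.0532 to 0.0726), and both ended without the mice with other tissue. Raised to the median of their array, its signals differed by -0.01 and 0.0046.

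ATP citrate lyase, Acly, was 11.96 to 12.97 (median 12.69) in LFD, 11.08 to 11.42 (median 11.32) in HFD and 10.98, 11.00, 11.02, 10.88 and 10.87 in HFD_CR mice, with no overlap between groups. Acly fell by 1.34 ± 0.12 (adjusted p = 2.54e-07) on the high-fat diet, and the fall of acetyl-CoA carboxylase Acaca was -1.82 ± 0.14 (adjusted p = 3.75e-08) and that of fatty acid synthase Fasn -0.85 ± 0.07 (adjusted p = 1.48e-07). HFD_CR minus LFD was -1.66 ± 0.13 (adjusted p = 2.78e-06) for Acly, -1.44 ± 0.15 (adjusted p = 1.35e-05) for Acaca and -0.78 ± 0.08 (adjusted p = 1.27e-05) for Fasn. With restriction the difference was -0.32 ± 0.13 (adjusted p = 0.0978) for Acly, which passed without LFD mouse 2 (-0.32, adjusted p = 0.01), and 0.38 ± 0.15 (adjusted p = 0.0845) for Acaca, which passed without HFD_CR mouse 1, or LFD mouse 2 (0.38 to 0.45, adjusted p = 0.0115 to 0.048). Of 6 enzymes that make citrate, split it, build fatty acids or return its carbon to malate and pyruvate (Cs, Acly, Acaca, Fasn, Mdh1 and Me1), all but Mdh1 (5) fell on the high-fat diet, 0 passed with restriction, and 5 were lower in HFD_CR than in LFD mice. The pyruvate carrier subunit Mpc1, whose cargo feeds citrate synthesis, fell by 0.51 ± 0.06 (adjusted p = 5.03e-06) on the high-fat diet and was -0.29 ± 0.06 (adjusted p = 0.0073) in HFD_CR against LFD mice. Its difference with restriction was 0.22 ± 0.06 (adjusted p = 0.0238), a call that ended without HFD_CR mouse 3 or 5, or HFD mouse 6 (0.19 to 0.21, adjusted p = 0.0503 to 0.0704).

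**Figure D5:**
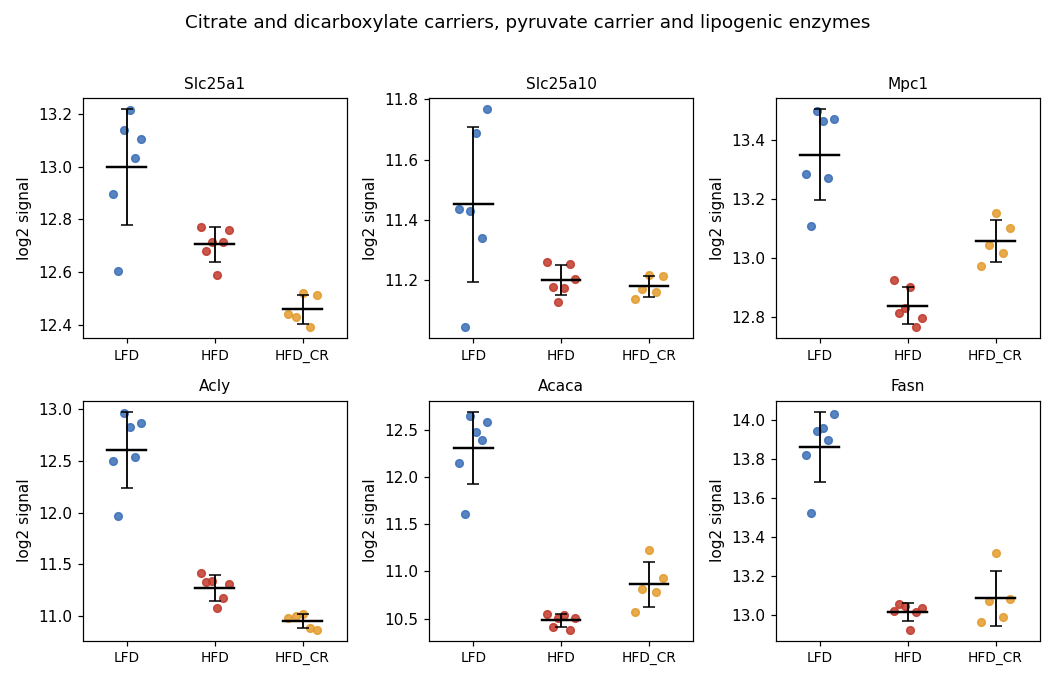
Log2 signal of the citrate carrier Slc25a1, the dicarboxylate carrier Slc25a10, the pyruvate carrier subunit Mpc1 and the enzymes Acly, Acaca and Fasn in each mouse (points), with group mean (line) and SD (bars); axes do not start at 0. LFD mouse 2 is the lowest LFD point in every panel.

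The carriers that feed oxidative phosphorylation showed small differences. Slc25a5, an ADP/ATP translocase of most tissues, was 12.67 to 12.95 (median 12.77) in LFD, 12.75 to 12.97 (median 12.87) in HFD and 12.54, 12.48, 12.66, 12.64 and 12.66 in HFD_CR mice. The HFD_CR mice lay below all other mice, and LFD and HFD mice overlapped. With restriction Slc25a5 fell by 0.27 ± 0.06 (adjusted p = 0.00236), whereas HFD minus LFD was 0.08 ± 0.05 (adjusted p = 0.346). Between HFD_CR and LFD mice the difference was -0.19 ± 0.06 (adjusted p = 0.039), a call that ended without HFD_CR mouse 1, 2 or 4, or LFD mouse 3, 4, 5 or 6 (-0.20 to -0.16, adjusted p = 0.0555 to 0.109). That call also ended in 7 of 13 other settings (-0.20 to -0.16, adjusted p = 0.0562 to 0.201). Slc25a4, the form of heart and muscle, was 10.04 to 10.45 (median 10.06) in LFD, 10.12 to 10.30 (median 10.18) in HFD and 10.04, 10.24, 10.00, 10.19 and 10.15 in HFD_CR mice. LFD mouse 2, which also had the highest mean of the muscle genes (10.5), was the highest, the groups overlapped and no difference passed. Slc25a31, a translocase known from germ cells, was 6.03 to 6.19 (median 6.11) in LFD, 6.01 to 6.20 (median 6.14) in HFD and 6.14, 6.00, 6.17, 6.32 and 6.12 in HFD_CR mice, below every array's median. The phosphate carrier Slc25a3 had no call, with a largest difference of -0.05 ± 0.04 (adjusted p = 0.414) for HFD_CR minus HFD. The translocases are close paralogs and Slc25a5 has many processed copies, so probes may share signal and a split between these genes is uncertain.

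Slc25a20 brings acylcarnitines into the matrix for oxidation. Its signal was 10.09 to 10.72 (median 10.29) in LFD, 10.35 to 10.57 (median 10.44) in HFD and 10.16, 10.26, 10.19, 10.28 and 10.33 in HFD_CR mice. LFD mouse 3 was the highest, and every HFD_CR mouse lay below every HFD mouse. HFD_CR minus HFD was -0.21 ± 0.08 (adjusted p = 0.0916) and HFD minus LFD 0.12 ± 0.08 (adjusted p = 0.306), neither past the threshold. Without LFD mouse 3 both passed, at -0.21 (adjusted p = 0.0134) and 0.19 (adjusted p = 0.0149). The enzymes beside it differed in direction: Cpt1a, which makes acylcarnitines at the outer membrane, rose by 0.74 ± 0.05 (adjusted p = 1.31e-08) on the high-fat diet and fell by 0.23 ± 0.05 (adjusted p = 0.00459) with restriction. Cpt2, which releases the acyl group in the matrix, fell by 0.30 ± 0.07 (adjusted p = 0.00188) on the high-fat diet, and carnitine acetyltransferase Crat fell by 0.37 ± 0.05 (adjusted p = 1.16e-05). Relative to LFD, HFD_CR mice differed by 0.51 ± 0.05 (adjusted p = 1.56e-05) for Cpt1a and -0.27 ± 0.05 (adjusted p = 0.00255) for Crat. Of the 4 carnitine shuttle enzymes measured 1 rose and 2 fell on the high-fat diet, 0 rose and 1 fell with restriction, and for HFD_CR minus LFD 1 was higher and 1 lower.

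Among carriers of other amino acids, Slc25a44, the importer of branched-chain amino acids known from brown fat, fell by 0.43 ± 0.10 (adjusted p = 0.00251) on the high-fat diet. It was 9.73 to 10.40 (median 10.03) in LFD, 9.44 to 9.80 (median 9.61) in HFD and 9.57, 9.72, 9.82, 9.82 and 10.01 in HFD_CR mice. The LFD and HFD ranges overlapped narrowly, and the HFD_CR mice lay between and across both. HFD_CR minus HFD was 0.17 ± 0.10 (adjusted p = 0.3). The difference of HFD_CR from LFD was -0.26 ± 0.10 (adjusted p = 0.134) and passed without LFD mouse 2 (-0.32, adjusted p = 0.0393). Slc25a38, which carries glycine for heme synthesis, fell by 0.20 ± 0.05 (adjusted p = 0.00853) on the high-fat diet, and HFD_CR minus LFD was -0.18 ± 0.06 (adjusted p = 0.0553), passing without LFD mouse 2 (-0.22, adjusted p = 0.00808). The ornithine carrier Slc25a15 had differences of -0.12 ± 0.06 (adjusted p = 0.126) for HFD minus LFD and -0.19 ± 0.06 (adjusted p = 0.0509) for HFD_CR minus LFD, the latter passing without HFD mouse 1 or 5, or LFD mouse 1 (-0.20 to -0.19, adjusted p = 0.0177 to 0.0487). For Slc25a29, a carrier of basic amino acids, the same 2 differences were -0.10 ± 0.09 (adjusted p = 0.449) and -0.15 ± 0.09 (adjusted p = 0.366), and both passed without LFD mouse 2, at -0.19 and -0.25 (adjusted p = 0.023 and 0.0181). Its group means of 7.18, 7.08 and 7.02 in LFD, HFD and HFD_CR mice lay near the array medians (7.03 to 7.15). Slc25a2, an ornithine carrier paralog, was 6.10 to 6.41 (median 6.22) in LFD, 6.22 to 6.37 (median 6.32) in HFD and 6.48, 6.47, 6.36, 6.42 and 6.45 in HFD_CR mice, below every array's median. Its HFD_CR minus LFD difference of 0.20 ± 0.05 (adjusted p = 0.0211) lost its call without HFD_CR mouse 1 or 2, or LFD mouse 4 (0.17 to 0.19, adjusted p = 0.051 to 0.0587), and was 0.0046 once signals were raised to their array's median.

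Slc25a42 and Slc25a16, carriers tied to coenzyme A, fell on the high-fat diet and rose with restriction. Slc25a42, which imports coenzyme A into the matrix, was 9.50 to 9.90 (median 9.66) in LFD, 9.15 to 9.52 (median 9.32) in HFD and 9.63, 9.77, 9.86, 9.83 and 10.01 in HFD_CR mice. The HFD_CR mice lay above all HFD mice, and the LFD and HFD ranges overlapped by the narrow span from 9.50 to 9.52. Slc25a42 was lower in HFD than in LFD mice by 0.33 ± 0.08 (adjusted p = 0.00433). It was higher in HFD_CR than in HFD mice by 0.49 ± 0.08 (adjusted p = 0.000437), with 0.16 ± 0.08 (adjusted p = 0.288) between HFD_CR and LFD. Slc25a16, also linked to coenzyme A in mitochondria, was 11.04 to 11.19 (median 11.16) in LFD, 10.69 to 10.96 (median 10.79) in HFD and 10.92, 11.05, 10.99, 11.06 and 11.13 in HFD_CR mice. All HFD mice lay below all LFD mice, while HFD_CR mouse 1 fell inside the HFD range. Its fall was -0.34 ± 0.05 (adjusted p = 5.46e-05) and its rise with restriction 0.23 ± 0.05 (adjusted p = 0.00402), which was not called without the mice with other tissue (0.18, adjusted p = 0.0778 to 0.0844). HFD_CR minus LFD was -0.10 ± 0.05 (adjusted p = 0.28).

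The glutathione importers Slc25a39 and Slc25a40 differed from LFD in opposite directions, on the high-fat diet and with restriction. Slc25a39 was 11.47 to 11.70 (median 11.61) in LFD, 11.24 to 11.39 (median 11.33) in HFD and 11.25, 11.29, 11.29, 11.36 and 11.45 in HFD_CR mice. LFD mice lay above all others. Slc25a39 fell by 0.28 ± 0.05 (adjusted p = 0.000239) on the high-fat diet, and HFD_CR minus LFD was -0.27 ± 0.05 (adjusted p = 0.00212). Slc25a40 was 8.76 to 9.05 (median 8.91) in LFD, 8.94 to 9.23 (median 9.18) in HFD and 9.15, 9.15, 9.18, 9.29 and 9.27 in HFD_CR mice. HFD_CR mice lay above all LFD mice, and HFD and LFD mice overlapped. Slc25a40 rose by 0.21 ± 0.06 (adjusted p = 0.00975) on the high-fat diet, and HFD_CR minus LFD was 0.28 ± 0.06 (adjusted p = 0.0061). The first call ended without the mice with other tissue or without LFD mice 3 and 6 (0.17 to 0.20, adjusted p = 0.0519 to 0.122), and the second without the mice with other tissue and LFD mouse 6 (0.28, adjusted p = 0.0568). HFD_CR minus HFD was 0.01 ± 0.05 (adjusted p = 0.967) for Slc25a39 and 0.07 ± 0.06 (adjusted p = 0.505) for Slc25a40.

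Slc25a17, a peroxisomal carrier of cofactors such as coenzyme A, was 10.49 to 10.97 (median 10.74) in LFD, 10.45 to 10.59 (median 10.50) in HFD and 10.49, 10.45, 10.41, 10.54 and 10.49 in HFD_CR mice. The groups overlapped, with the lowest LFD mouse inside the range of the others. Slc25a17 fell by 0.24 ± 0.06 (adjusted p = 0.00621) on the high-fat diet, and HFD_CR minus LFD was -0.27 ± 0.06 (adjusted p = 0.0103). The carriers Slc25a26 (S-adenosylmethionine), Slc25a32 (folate), Slc25a33 and Slc25a36 (pyrimidine nucleotides) and Slc25a51 (NAD) had no call, with differences from -0.11 to 0.15 over the 3 comparisons.

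Of the mitoferrins, which bring iron into the matrix, Slc25a28 had -0.11 ± 0.04 (adjusted p = 0.0328) for HFD minus LFD, a call that ended without HFD mouse 2, 3 or 6, or LFD mouse 2, 4 or 5 (-0.11 to -0.09, adjusted p = 0.0629 to 0.0756), and Slc25a37 had no call. That of Slc25a28 also ended in 5 of 13 other settings, among them without the mice with other tissue (-0.11 to -0.08, adjusted p = 0.0571 to 0.258). For Slc25a37, HFD minus LFD passed only without those mice and with LFD mouse 6 kept (0.25, adjusted p = 0.0317). Among relatives of the uncoupling proteins, Slc25a14 was 6.55 to 6.88 (median 6.71) in LFD, 6.92 to 7.07 (median 7.03) in HFD and 6.84, 6.92, 7.11, 6.87 and 6.95 in HFD_CR mice. LFD mice lay below all HFD mice, but most signals were below the array medians, and with each median in place of a lower signal the HFD minus LFD difference was -0.01. The fitted differences from LFD were 0.30 ± 0.06 (adjusted p = 0.000614) in HFD and 0.24 ± 0.06 (adjusted p = 0.0187) in HFD_CR mice, the latter not called without HFD_CR mouse 3 (0.19, adjusted p = 0.061). Slc25a30 had no call, and neither did Slc25a27, whose HFD_CR minus HFD difference of 0.19 ± 0.07 (adjusted p = 0.0752) passed without HFD_CR mouse 5 (0.25, adjusted p = 0.0241). Of 4 carriers under other names, the uncoupling protein Ucp3 fell by 0.62 ± 0.09 (adjusted p = 4.94e-05) and the outer membrane protein Mtch2 by 0.27 ± 0.05 (adjusted p = 0.000178) on the high-fat diet, and 0 rose. Mtch2 was also lower in HFD_CR than in LFD mice, by 0.24 ± 0.05 (adjusted p = 0.00331). Ucp3 was 0.30 ± 0.10 (adjusted p = 0.0391) for HFD_CR minus HFD, which ended without HFD_CR mouse 2, 3, 4 or 5, or HFD mouse 2, 3, 5 or 6 (0.27 to 0.31, adjusted p = 0.0527 to 0.103), and -0.32 ± 0.10 (adjusted p = 0.0435) for HFD_CR minus LFD, which ended without HFD_CR mouse 1, 4 or 5, HFD mouse 2 or 6, or LFD mouse 1, 3, 4 or 6 (-0.34 to -0.25, adjusted p = 0.0502 to 0.13).

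Ucp1, the uncoupling protein of thermogenic fat, spread from 6.71 to 12.65 (median 9.84) among LFD mice, with mice 3 and 6 highest. It was 6.82 to 9.53 (median 7.83) in HFD and 6.60, 6.62, 6.17, 7.36 and 8.26 in HFD_CR mice. Between HFD_CR and LFD mice the difference was -2.88 ± 0.84 (adjusted p = 0.0371), a call that ended without HFD_CR mouse 1, 2, 3 or 4, or LFD mouse 1, 3 or 6 (-2.97 to -2.33, adjusted p = 0.0632 to 0.0923). That call also ended in 7 of 13 other settings (-2.88 to -1.30, adjusted p = 0.0698 to 0.424). Among these were the fits without LFD mice 3 and 6 and without the mice with other tissue. HFD minus LFD was -1.90 ± 0.80 (adjusted p = 0.0895) and passed without LFD mouse 4 (-2.53, adjusted p = 0.0113). With restriction 1 of the 4 carriers under other names rose and 0 fell, and 3 were lower in HFD_CR than in LFD mice.

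Some of the largest differences belonged to members whose cargo is not given here. Slc25a43 was 7.20 to 7.45 (median 7.29) in LFD, 8.18 to 8.90 (median 8.49) in HFD and 7.91, 7.50, 7.70, 7.68 and 7.73 in HFD_CR mice. No 2 groups overlapped: HFD mice were highest, LFD mice lowest and HFD_CR mice between. Slc25a43 rose by 1.22 ± 0.09 (adjusted p = 3.55e-08) on the high-fat diet, a 2.34-fold difference, fell by 0.82 ± 0.10 (adjusted p = 1.99e-05) with restriction, and was still 0.41 ± 0.10 (adjusted p = 0.0126) above LFD. All 8 macrophage genes had the same order of group means, but only 4 of them passed for HFD_CR minus LFD, and their part in this was not tested. Its start-site window in the RefSeq table (GRCm38.p6, chrX:36743382-36743681, plus strand) is shown beside that of Slc25a13, the other carrier with a large rise; the 2 GC boxes in capitals have no counterpart there.

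Slc25a43: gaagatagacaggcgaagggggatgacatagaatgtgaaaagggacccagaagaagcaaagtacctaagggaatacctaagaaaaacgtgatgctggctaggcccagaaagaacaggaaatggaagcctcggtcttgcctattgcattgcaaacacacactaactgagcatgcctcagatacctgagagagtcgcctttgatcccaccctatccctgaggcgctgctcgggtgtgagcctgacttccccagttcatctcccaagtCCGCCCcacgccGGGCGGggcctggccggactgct

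Slc25a35 had the opposite order. It was 10.95 to 11.59 (median 11.38) in LFD, 10.14 to 10.51 (median 10.36) in HFD and 10.71, 10.71, 10.87, 10.74 and 10.93 in HFD_CR mice, so that LFD mice were highest, HFD mice lowest and no groups overlapped. Slc25a35 fell by 1.03 ± 0.09 (adjusted p = 1.79e-07) on the high-fat diet, rose by 0.46 ± 0.10 (adjusted p = 0.00224) with restriction, and HFD_CR minus LFD was -0.56 ± 0.10 (adjusted p = 0.00116). Of the 9 adipocyte genes 7 fell on the high-fat diet and 6 rose with restriction, and for HFD_CR minus LFD 1 was higher and 1 lower. Their part in the differences of Slc25a35 was not tested.

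Slc25a45 was 8.55 to 8.80 (median 8.60) in LFD, 8.75 to 9.06 (median 8.90) in HFD and 8.60, 8.63, 8.53, 8.43 and 8.47 in HFD_CR mice. HFD mice lay above all HFD_CR mice and overlapped with LFD mice. It rose by 0.27 ± 0.06 (adjusted p = 0.00278) on the high-fat diet, a call that ended without the mice with other tissue and LFD mouse 6 (0.23, adjusted p = 0.0857), and fell by 0.38 ± 0.07 (adjusted p = 0.000396) with restriction, with -0.11 ± 0.07 (adjusted p = 0.344) between HFD_CR and LFD. Slc25a34, Slc25a46, Slc25a47, Slc25a53 and Slc25a54 had no call in any comparison or with any mouse left out. Slc25a48, dim in all mice, had -0.15 ± 0.06 (adjusted p = 0.0536) for HFD minus LFD and passed without HFD mouse 2 or 5, or LFD mouse 2 (-0.19 to -0.17, adjusted p = 0.0124 to 0.0347).

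Of the genes that insert carriers 20% passed in each comparison, and of the regulators of mitochondrial biogenesis 25%, 12.5% and 12.5% in the order of comparisons used above, beside 27.8%, 19% and 9.08% of all genes. With only genes above the median gene fitted, the shares of genes passing were 48.7%, 37.5% and 20.9%. Of 10 genes of carrier import, Tomm20 rose by 0.20 ± 0.07 (adjusted p = 0.0404) and Tomm70a by 0.18 ± 0.05 (adjusted p = 0.0162) on the high-fat diet and 0 fell. With restriction 0 rose, and Tomm20 at -0.22 ± 0.07 (adjusted p = 0.0409) and Timm22, the core of the insertion complex, at -0.32 ± 0.07 (adjusted p = 0.00505) fell. Timm29 was lower in HFD_CR than in LFD mice by 0.21 ± 0.06 (adjusted p = 0.0469) and Agk by 0.19 ± 0.05 (adjusted p = 0.025), and 0 were higher. The call of Tomm70a ended in 5 of 13 settings that left out no single mouse, among them without the mice with other tissue and without LFD mice 3 and 6 (0.11 to 0.17, adjusted p = 0.0509 to 0.189). That of Tomm20 ended for the diet without HFD mouse 1, 2, 3 or 6, or LFD mouse 4 or 5 (0.14 to 0.20, adjusted p = 0.0584 to 0.102) and for restriction without any single HFD_CR mouse, or HFD mouse 1, 2, 3 or 6 (-0.23 to -0.18, adjusted p = 0.0564 to 0.0939). Timm29 ended without any single HFD_CR mouse, HFD mouse 2, 3, 4 or 6, or LFD mouse 1, 2, 3 or 5 (-0.23 to -0.17, adjusted p = 0.0513 to 0.108) and Agk without HFD_CR mouse 1, 2 or 5, or LFD mouse 4, 5 or 6 (-0.19 to -0.17, adjusted p = 0.0534 to 0.0768). Both also ended in other settings, Timm29 in 7 of 13 (-0.22 to -0.15, adjusted p = 0.0558 to 0.255) and Agk in 5 of 13 (-0.22 to -0.18, adjusted p = 0.0524 to 0.104).

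Of the 3 channels of the outer membrane and Mpc1, the channel Vdac2 rose by 0.19 ± 0.05 (adjusted p = 0.00543) and Mpc1 fell on the high-fat diet, the former not called without the mice with other tissue (0.17 to 0.18, adjusted p = 0.0624 to 0.128). With restriction Mpc1 rose and Vdac2 fell by 0.24 ± 0.05 (adjusted p = 0.00175), and Vdac3 had -0.18 ± 0.06 (adjusted p = 0.031), which ended without HFD_CR mouse 1, 3 or 5, or HFD mouse 1, 2 or 6 (-0.18 to -0.15, adjusted p = 0.0588 to 0.0983). In HFD_CR against LFD mice Mpc1 was lower and 0 of the 4 were higher. Of 8 regulators of mitochondrial biogenesis 2 fell and 0 rose on the high-fat diet, the coactivators Ppargc1a by 0.65 ± 0.13 (adjusted p = 0.00103) and Ppargc1b by 0.52 ± 0.10 (adjusted p = 0.000655). With restriction Ppargc1a was the 1 that rose, by 0.44 ± 0.14 (adjusted p = 0.0327), and 0 fell. That call ended without HFD_CR mouse 2, 3, 4 or 5, or HFD mouse 1, 2, 5 or 6 (0.37 to 0.45, adjusted p = 0.0512 to 0.0819). Ppargc1b was the 1 of 8 lower in HFD_CR than in LFD mice, at -0.38 ± 0.11 (adjusted p = 0.0287), and 0 were higher, a call that ended without HFD_CR mouse 1 or 5, or LFD mouse 3 or 5 (-0.38 to -0.33, adjusted p = 0.0517 to 0.0848). The call of Ppargc1b also ended in 4 of 13 other settings (-0.43 to -0.25, adjusted p = 0.0734 to 0.148).

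Start-site windows were found for 36 of the 46 members, 46 windows in all, since some genes have several. A GC box (GGGCGG) stood in 82.6% of member windows and in 35.7% of all 32851 windows of the table. A CCAAT box (CCAAT) stood in 47.8% against 37.4%, and an E box (CACGTG) in 17.4% against 7.15%. The letters of an NRF-1 site were in 4.35% of member windows and 4.6% of all. Both strands were read, motifs may overlap, and the motifs put in capitals were chosen from 16 after their matches were seen. Slc25a35 had no window in the table.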

How the data were processed

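RNA of 17 mice was measured on 1 array each. Each array held RNA of a separate animal, and only RNA with an integrity number over 7 was used, per the labels' protocols. The deposited values are log2 signals per probe set. RMA, limma and R 3.5.0 are named in the submitters' processing notes, with no role or order given. RMA subtracts background, scales arrays to each other and combines the probes of a set, which compresses the differences of dim probe sets. Probes carry no read depth, so the number of arrays limits the precision. Of 33793 probe sets 23521 had 1 gene symbol in the platform annotation, 1814 several and 8458 none; those with several or none were left out. The probe set with the highest mean was kept per gene, which left 22180 genes, with no filter on dim signals. Some genes of the lists are not reported here.

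The linear model held 1 mean for each diet group and used all 17 arrays. It was run in R 4.3.3 with limma 3.58.1 (lmFit, then eBayes with no trend), with 14 degrees of freedom left over and 3.625 from the prior. The 3 contrasts were adjusted by Benjamini-Hochberg over all genes, and a call is an adjusted p under 0.05. Errors of differences are standard errors. The fit was tested on simulated data. Values by mouse are given for the members with the 6 largest rises and 6 largest falls that passed in each comparison and, whatever their result, for 9 named ones (Slc25a1, Slc25a4, Slc25a5, Slc25a10, Slc25a11, Slc25a20, Slc25a25, Slc25a31 and Slc25a44). Of each list of related genes up to 3 that passed are named, or the 2 with the smallest p. The members and lists were chosen with earlier results of these data known. Alternatives covered scaling, filters, probe set choice, the variance model, the mouse number as a block and leaving out mice. Replicate arrays correlated at a median of 0.993 within and 0.985 between groups, and none were duplicates. Python 3.11.15 and matplotlib 3.10.9 drew the figures.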

Additional observations from a re-analysis of the deposited data

Results flagged for a closer look

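Of 138 sets of values (46 members in 3 groups), 11 (7.97%) held a mouse standing apart from the rest of its group by Dixon's criterion, which chance alone gives in about 1 in 20. In the LFD group, Slc25a4 was 10.45 in mouse 2 while the others ran from 10.04 to 10.13, and the muscle genes averaged 10.5 in that mouse. Slc25a30 was 10.13 in LFD mouse 3 (others 9.345 to 9.615), and Slc25a54, dim throughout, was 5.16 there (others 5.518 to 5.702). The thermogenic genes averaged 10.6 and the gland genes 9.18 in LFD mouse 3.

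In the HFD group, Slc25a4 was 10.3 in mouse 1 (others 10.12 to 10.18). HFD mouse 5, the mouse with the highest array median (7.15), was apart for 3 members: Slc25a29 at 7.292 (others 6.993 to 7.071), Slc25a30 at 9.369 (others 9.596 to 9.717) and Slc25a32 at 8.321 (others 8.568 to 8.696).

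In the HFD_CR group, mouse 5 was apart for Slc25a11 at 11.78 (others 11.58 to 11.63), Slc25a12 at 9.057 (others 9.201 to 9.252) and Slc25a51 at 9.964 (others 9.882 to 9.899). Slc25a34 was 6.622 in HFD_CR mouse 3 (others 6.838 to 6.925). None of these values was left out of the comparisons, and what set those mice apart was not tested.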

How the results depend on the processing

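For single genes 30 settings were tried, and no called direction reversed. Calls of members that passed under every setting holding the gene were 14 of 20 for HFD minus LFD and 7 of 10 for HFD_CR minus HFD. For HFD_CR minus LFD they were 6 of 13, namely Slc25a1, Slc25a17, Slc25a24, Slc25a35, Slc25a39 and Slc25a43. Slc25a13 (among the 14 and the 7) and Slc25a14 (among the 14) were absent from the setting with only genes above the median gene. Of the members not called, 9 of 26, 4 of 36 and 5 of 33 passed under some setting. With a difference of at least 1.5-fold required, members higher and lower were 3 and 2 for HFD minus LFD, 1 and 2 for HFD_CR minus HFD, and 0 and 0 for HFD_CR minus LFD, where limma's adjusted p alone gave 5 and 8. The 5 higher for HFD_CR minus LFD became 3 with only genes above the median gene, with only the arrays of the 2 groups compared and without the mice with other tissue and LFD mouse 6, and 2 with an adjusted p under 0.01. The 8 lower became 5 without LFD mice 3 and 6 and 3 with an adjusted p under 0.01. Beyond the fewer genes, mice or calls that these settings admit, the cause was not tested. With each mouse left out in turn, members higher and lower numbered 7 to 8 and 11 to 15 for HFD minus LFD, 4 to 5 and 5 to 7 for HFD_CR minus HFD, and 4 to 5 and 5 to 12 for HFD_CR minus LFD. Centring on the median of the genes, and leaving out LFD mouse 6 with the mice with other tissue, were chosen after seeing the data.

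Whether the mouse numbers of the labels pair the mice was not settled, and the main fit treated the mice as unpaired. Correlations of same-numbered mice ran from -0.00649 to 0.409 for LFD with HFD, -0.108 to 0.135 for HFD with HFD_CR and -0.00689 to 0.303 for LFD with HFD_CR, with 1 of 6, 2 of 5 and 2 of 5 over 0.1. The best match had the same number for 1 of 6, 1 of 5 and 4 of 5 mice. With the number as a replicate block, members higher and lower were 7 and 12, 4 and 5, and 3 and 8. Dim signals limit 10 members, and 5 or 6 mice per group limit the size of difference that could be called.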
